A study of Mus musculus with 81 samples.

Results

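The 8 genes Tcp1, Cct2, Cct3, Cct4, Cct5, Cct6a, Cct7 and Cct8 encode the subunits of the chaperonin CCT, also called TRiC. They were chosen by name, with the gene identifiers of the expression tables matched to GENCODE symbols, and are 8 of 57010 gene identifiers. Cct8 lies in the triplicated segment of Mmu16 and so has 3 copies in Ts65Dn mice, while the other 7 subunit genes are spread over other chromosomes and have 2. The question asked of these data was how the level of 1 subunit with an added copy stood against that of its 7 partners in each neuron population, genotype and maternal diet.

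CCT is a barrel-shaped complex of a pair of stacked rings in the cytosol. Each ring holds 1 copy of every subunit, so all 8 subunits are needed to build it. It takes up newly made tubulin and actin, handed over in part by the chaperone prefoldin, together with some WD-repeat proteins such as the beta subunits of G proteins, and folds them in an ATP-driven cycle. Neurons use large amounts of both cytoskeletal proteins for axons, dendrites and spines.

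Libraries were made from male Ts65Dn (Ts) and disomic (2N) mice at 6 MO. The dams had received choline chloride at 1.1 g/kg (ChN, normal choline) or 5.0 g/kg (ChP, choline supplemented) until weaning, after which every offspring ate the control diet. Groups of CA1 pyramidal neurons (CA1 PNs), CA3 pyramidal neurons (CA3 PNs) and dentate gyrus granule cells (DGCs) were cut from Nissl-stained rostral hippocampus by laser capture microdissection, and 28 mice gave 81 libraries. CA1 PNs came from 6 2N and 5 Ts mice on ChN and from 7 2N and 9 Ts mice on ChP. CA3 PNs came from 6 2N and 6 Ts mice on ChN and from 7 of each genotype on ChP, and DGCs came from 6 2N and 6 Ts mice on ChN and from 7 2N and 9 Ts mice on ChP. Ts mice carry an additional minichromosome made of the distal Mmu16 segment joined to the centromeric part of Mmu17, so that genes of that Mmu17 part are triplicated as well. Both genotypes share the breeding background, female Ts65Dn crossed to male C57Bl/6J Eicher by C3H/HeSnJ F1 mice.

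The expected counts of a library summed to between 625249 and 4744036 in ChN mice and between 358355 and 2559173 in ChP mice. Cct8 had 35 to 517 expected counts per library (median 155), and the 8 subunits together spanned 27 to 946. Marker genes placed the libraries in neurons, with summed excitatory markers, in CPM (counts scaled to library size), between 5227 and 8112 and summed microglial markers between 5.57 and 43.1. Summed markers of inhibitory neurons ran from 123 to 439 CPM, of astrocytes from 156 to 396 and of oligodendrocytes from 98.3 to 534, the last with group medians of 346 to 351 in CA3 PNs. Some libraries stood apart from their labels. The CA3 PN library of mouse 15-145 was labeled Ts, the CA1 PN and DGC libraries from that animal 2N, and the former was counted as 2N here. In the CA1 PN library of 2N mouse 17-154 (ChN), the mean log2 CPM of 60 other triplicated Mmu16 genes was 5.67, within the Ts range of 5.63 to 5.74, whereas CA3 PNs and DGCs of that mouse had 5.03 and 5.17. Among CA1 PN libraries, those of 17-21 (2N, ChN), 16-357 (Ts, ChN), 15-336 (2N, ChP) and 16-272 (Ts, ChP) had the lowest summed CA1 markers of their groups. These were 82.5, 577, 187.6 and 54.2 CPM against group medians of 1742, 1424, 1521 and 1391. CA2 markers were at the high end in them, with 1233 CPM in that of 16-357 against a group median of 111. They were also high in other CA1 PN libraries. Among 2N mice on ChP, the mean log2 CPM of CA2 markers was 7.22 in 16-90 and 6.06 in 15-334 (group median 3.16). Among Ts mice on ChP it was 7.11 in 15-199, 5.63 in 15-140 and 5.58 in 15-198 (median 3.05). It was 5.89 in 17-154 (2N, ChN, median 2.67). Apart from 17-154, these other libraries stayed in the fits that left out several CA1 PN libraries together.

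Cct8 (ENSMUSG00000025613) sits on the minus strand of Mmu16 at chr16:87279168-87292801 in GRCm39. The stretch just before its RefSeq start site is shown because it is the only promoter region among those of the subunits that is triplicated with its gene. It lies on the minus strand at chr16:87292772-87293007 in GRCm39, found there by exact match of the GRCm38.p6 RefSeq sequence. Its 236 bases read 5′ to 3′, the 14 bases next to the start site are left out, and the last 30 bases fall inside the GENCODE gene model. Capitals mark a GC box (GGGCGG) and an ETS motif (CCGGAAGT), both read on the strand of the gene, which do not overlap each other.
Cct8: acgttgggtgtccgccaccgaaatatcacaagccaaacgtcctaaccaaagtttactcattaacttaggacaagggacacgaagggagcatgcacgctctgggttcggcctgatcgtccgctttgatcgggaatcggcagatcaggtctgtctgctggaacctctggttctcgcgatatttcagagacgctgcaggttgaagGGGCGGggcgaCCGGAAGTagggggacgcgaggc

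These 2 motifs lay 48 to 43 bases and 37 to 30 bases before the RefSeq start. Promoter windows of 250 bases were at hand for 7 of the 8 subunits, all but Cct4. These were 9 windows, since Cct2 and Cct5 have 2 start sites each, and they were searched on both strands beside 32851 promoters of that length. Promoters on chr18 were left out, so all promoters here means those searched. A GC box was present in 8 of the 9 windows, all but the second of Cct5, and in 32.7% of all promoters. The ETS motif was found in 1 of the 9 windows, that of Cct8, and in 2.9% of all promoters. A CCAAT box (CCAAT) was found in the windows of Tcp1, Cct3, Cct6a and Cct7 and in 33.8% of all promoters. The heat shock element GAANNTTC was found in 1 of the 9 windows, the second of Cct2, and in 6.7% of all promoters, and an E-box (CACGTG) in 0 of the 9 and in 6.0% of all. Such matches describe the letters of a window and were not tested as binding sites.

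Tcp1, the founding member of the family, is the one partner on a chromosome that contributes to the Ts65Dn minichromosome. It lies at chr17:13134588-13163066, which begins 3.93 Mb beyond the end of Pde10a, the last of 27 listed triplicated Mmu17 genes, so it has no added copy. The other 6 genes lie on chromosomes 10 (Cct2), 3 (Cct3), 11 (Cct4), 15 (Cct5), 5 (Cct6a) and 6 (Cct7). Counts of the related genes checked were few. The testis paralog Cct6b had 0 to 2 counts per library, Cct8l1 had 0 to 1 and the pseudogenes Tcp1-ps1 and Cct3-ps1 had 0. Tcp1 was the only subunit with expected counts that were not whole, in 12 libraries. Cct8 overlaps the lncRNA B130034C11Rik on the opposite strand, which had 0 to 12 counts. The library kit keeps strand, but the strand setting of the counting is not given in the sources used here.

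Cct8 was higher in Ts than in 2N mice in all 3 populations on both diets, and in none of the 6 comparisons did the groups overlap. Levels are given as CPM scaled by the trimmed mean of M values (TMM). In CA1 PNs of ChN mice, Cct8 ran from 89.3 through a median of 113 to 139 CPM in 2N mice and from 149.5 through 162 to 192 in Ts mice, means of 112 ± 19.8 (SD, n = 6) and 166 ± 17.0 (n = 5). All 5 Ts libraries lay above all 6 2N libraries, with the 2N library of mouse 17-154 as the highest of its group and that of 16-357, one of those with few CA1 markers, as the highest Ts library. The log2 fold change (LFC) was 0.54 (SE 0.140, 95% interval 0.25 to 0.84), past an unadjusted p of 0.05 by edgeR's quasi-likelihood test but with an adjusted p of 1. Here 3.77% of the 12286 genes tested had an unadjusted p under 0.05, the threshold the study used for differentially expressed genes (DEGs), and 0.293% were higher in Ts with no overlap. Without the libraries of 17-154 and 17-21 the LFC was 0.69 (adjusted p = 0.0476), and without that of 16-357 as well it was 0.62 (adjusted p = 0.0137). These libraries were picked after seeing the data, that of 17-154 by its other triplicated Mmu16 genes. Its removal takes out the highest 2N value of Cct8, so these fits are no independent support.

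In CA1 PNs of ChP mice, Cct8 spanned 89.5 to 114 CPM in 2N (median 104) and 122 to 190.2 in Ts (median 157). The means were 102 ± 9.53 (SD, n = 7) and 159 ± 20.7 (n = 9), a ratio of 1.55. The lowest Ts library was that of 16-272, one of those with few CA1 markers, and it still lay above the highest 2N library. The LFC was 0.63 (SE 0.103, adjusted p = 0.00454), in a comparison where 3.60% of genes had an unadjusted p under 0.05 and 0.0839% were higher in Ts without overlap. Without the libraries of 15-336 and 16-272 it was 0.64 (adjusted p = 0.00135). With the mean log2 CPM of the CA2 markers as a covariate it was 0.63 (adjusted p = 0.000167). These settings were added after seeing the data, and the first takes out the lowest Ts value.

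CA3 PNs held the most Cct8 of the 3 populations by group median. In ChN mice the 2N libraries ran from 106 through 125 to 152 CPM and the Ts libraries from 183 through 197 to 211, with means of 125 ± 15.8 (SD, n = 6) and 197 ± 9.71 (n = 6). The library of mouse 15-145 stood at 125 CPM, inside the 2N range and below every Ts library. The LFC was 0.64 (SE 0.0848, adjusted p = 2.38e-06), where 9.20% of genes passed the unadjusted threshold and 0.602% were higher in Ts without overlap. With that library moved to Ts, as its own label has it, the LFC was 0.53 (adjusted p = 0.0763). In the same comparison, 4 of 6 inhibitory neuron markers and 3 of 6 astrocyte markers were lower in Ts at an unadjusted p under 0.05, and their part in the result was not tested.

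In CA3 PNs of ChP mice, Cct8 ran from 75.2 through 134 to 150.4 CPM in 2N and from 162 through 176 to 213 in Ts, means of 125 ± 26.5 (SD, n = 7) and 182 ± 17.7 (n = 7). The library of mouse 15-336 was the lowest, with the next 2N library at 109 CPM, and the groups did not overlap. The LFC was 0.52 (SE 0.0993, adjusted p = 0.00339). Of all genes here, 4.99% had an unadjusted p under 0.05 and 0.242% were higher in Ts without overlap.

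DGCs had the lowest Cct8 of the 3 populations and the largest ratios of group means between genotypes. On ChN, 2N libraries ran from 68.2 through 86.2 to 101 CPM and Ts libraries from 125 through 135 to 149, means of 85.5 ± 13.3 (SD, n = 6) and 137 ± 8.92 (n = 6), a ratio of 1.61. The LFC was 0.69 (SE 0.101, adjusted p = 7.07e-06), where 8.50% of genes passed the unadjusted threshold and 0.484% were higher in Ts without overlap. On ChP, 2N libraries ran from 65.5 through 85.7 to 108 CPM and Ts libraries from 114 through 134 to 170.3, means of 86.5 ± 13.4 (SD, n = 7) and 138 ± 15.2 (n = 9). The LFC was 0.65 (SE 0.0993, adjusted p = 5.67e-06), where 7.60% of genes passed and 0.240% were higher in Ts without overlap. Markers of other cells moved in the same comparison. At an unadjusted p under 0.05, 3 of 4 tested inhibitory neuron markers, 2 of 6 astrocyte markers, 1 of 5 tested oligodendrocyte markers and 1 of 5 tested CA3 markers were higher in Ts. The mean log2 CPM of the inhibitory markers was 3.15 in 2N (highest 3.29) and 3.65 in Ts (lowest 3.32), and that of the CA3 markers 3.06 (highest 3.17) and 3.35 (lowest 3.20), both without overlap. Summed inhibitory markers ran from 167 to 248 CPM in 2N and from 219 to 318.5 in Ts, summed CA3 markers from 83.5 to 141 and from 113 to 179, and astrocyte and oligodendrocyte markers overlapped between genotypes. Their part in the result was not tested.

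**Figure D1:**
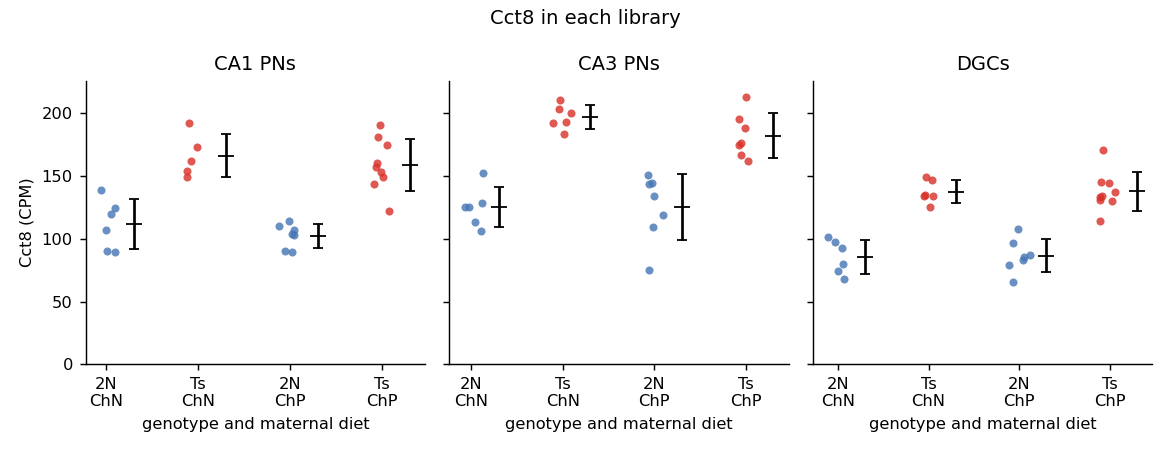
Cct8 level (CPM, linear axis from 0) in every library, by neuron population, genotype and maternal diet, with each point 1 library and the bars the group mean and SD. In all 6 pairs of 2N (blue) and Ts (red) groups the Ts points lie above the 2N points, with the narrowest gap in DGCs of ChP mice, where the highest 2N library stood at 108 CPM and the lowest Ts library at 114.

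The ratio of 3 gene copies to 2 is 1.5, or 0.585 on the log2 scale. The 6 ratios of mean Cct8 CPM were 1.49 and 1.55 in CA1 PNs (ChN and ChP), 1.58 and 1.46 in CA3 PNs and 1.61 and 1.59 in DGCs, and each of the 6 intervals of the LFC held 0.585. The 95% intervals ran from 0.25 to 0.84 and from 0.42 to 0.84 in CA1 PNs, from 0.47 to 0.81 and from 0.32 to 0.72 in CA3 PNs, and from 0.49 to 0.89 and from 0.45 to 0.85 in DGCs. In bulk samples such as these, fewer cells of a type and less RNA per cell cannot be told apart. The mice of a group are separate animals, and the p-values between genotypes judge the difference against an estimate of the spread between them.

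The other 7 subunits did not rise as Cct8 did. Of all genes, 3.60% to 9.20% had an unadjusted p under 0.05 between genotypes, by comparison and in either direction. Of 42 tests of the 7 subunits between genotypes, 1 had an unadjusted p under 0.05, that of Tcp1 in CA3 PNs of ChP mice. There Tcp1 ran from 182 through 212 to 229 CPM in 2N and from 171 through 186 to 208 in Ts, with overlap, and fell by 0.16 on the log2 scale (SE 0.0771, 95% interval -0.32 to -0.01, adjusted p = 0.989), where 2.32% of genes were lower in Ts at that threshold. With any of 7 of the 14 libraries left out, or with no filter on low counts, its unadjusted p was above 0.05. In CA3 PNs of ChN mice the LFC of Tcp1 was 0.05 (95% interval -0.11 to 0.20). In CA1 PNs of ChP mice Cct2 also had an unadjusted p under 0.05, at -0.24, with library totals in place of TMM and, separately, without the Ts library of 16-272.

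Cct5, with Tcp1 the most abundant subunit per length in 2N mice, had LFCs between -0.18 (95% interval -0.43 to 0.06) and 0.10 (-0.11 to 0.31), both in CA1 PNs, on ChN and ChP. In CA3 PNs of ChN mice it had 185 to 219 CPM in 2N and 172 to 221 in Ts, ranges that overlap almost fully. Cct3, the least abundant in most groups, had the lowest LFC of any subunit, -0.25 in CA1 PNs of ChN mice (95% interval -0.55 to 0.05), where it ran from 68.1 to 90.1 CPM in 2N and from 54.1 to 82.9 in Ts. On ChP in the same neurons its LFC was 0.04 (-0.21 to 0.28).

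Cct4 had the highest LFC among the partners, 0.18 in CA1 PNs of ChN mice (95% interval -0.16 to 0.52), with 46.4 to 74.8 CPM in 2N and 58.2 to 87.0 in Ts. Cct2 lay between -0.19 (CA1 PNs, ChP, 95% interval -0.43 to 0.04) and 0.06, Cct6a between -0.13 (CA3 PNs, ChN, -0.29 to 0.04) and 0.08, and Cct7 between -0.09 (CA3 PNs, ChN, -0.26 to 0.09) and 0.03. These values lie on both sides of 0, and none passed the threshold. The upper ends of the 42 intervals all lay below 0.585, the log2 ratio of 3 copies to 2.

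Seen together, the median LFC of the 7 partners was -0.03, -0.02 and -0.03 in CA1 PNs, CA3 PNs and DGCs on ChN and 0.04, 0.00 and -0.01 on ChP. The median of all genes tested lay between -0.01 and 0.02 in these comparisons. Among the other listed triplicated Mmu16 genes the median LFC was 0.40, 0.56 and 0.55 on ChN and 0.47, 0.53 and 0.60 on ChP, in the same order of populations. The study listed triplicated genes that it found expressed in these neuron populations, so the list depended on detection in part of these data. Of these, 26 of 61, 50 of 65 and 49 of 64 rose on ChN, 41 of 65, 48 of 66 and 51 of 66 rose on ChP, and 0 fell, at an unadjusted p under 0.05. Of all genes, 1.78%, 4.90% and 4.55% rose on ChN and 2.14%, 2.67% and 3.95% on ChP at that threshold.

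**Figure D2:**
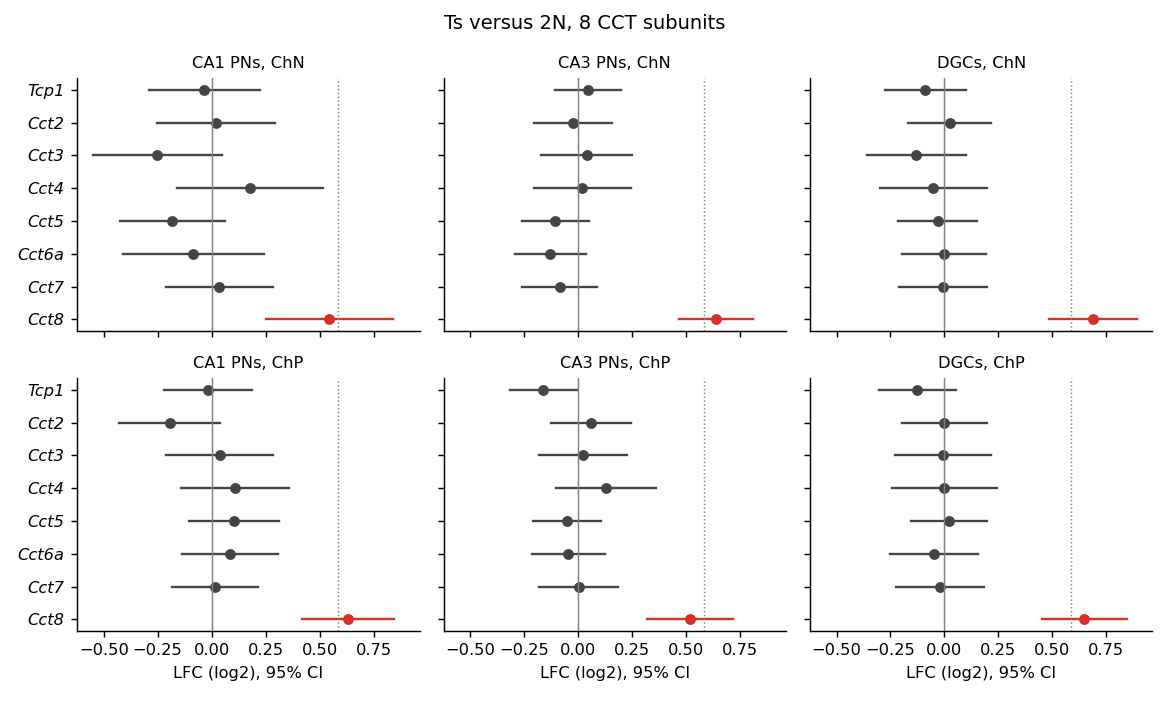
LFC of Ts against 2N for each CCT subunit, with points as estimates, bars as 95% confidence intervals, columns as neuron populations and rows as maternal diets. The dotted line marks the log2 of 3 copies over 2 (0.585), near which Cct8 (red) lies in all 6 panels, while the other subunits lie around 0.

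To set Cct8 against its partners within the same library, its CPM was divided by the geometric mean CPM of the other 7. This ratio needs no scaling between libraries. In CA3 PNs of ChN mice it ran from 0.830 to 1.05 in 2N and from 1.37 to 1.61 in Ts, means of 0.918 ± 0.082 (SD, n = 6) and 1.47 ± 0.090 (n = 6). In DGCs of ChN mice it ran from 0.685 to 0.939 in 2N and from 1.27 to 1.38 in Ts, means of 0.811 ± 0.112 (n = 6) and 1.33 ± 0.045 (n = 6). In these groups the genotypes were far apart, and the 6 Ts DGC libraries were the tightest group of all.

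On ChP the ratio was 0.951 ± 0.154 (SD, n = 7) in 2N and 1.39 ± 0.128 (n = 7) in Ts CA3 PNs, and 0.827 ± 0.137 (n = 7) and 1.31 ± 0.123 (n = 9) in DGCs, again with no overlap. In CA1 PNs it was 0.977 ± 0.189 (n = 6) in 2N and 1.46 ± 0.145 (n = 5) in Ts mice on ChN, and 0.910 ± 0.082 (n = 7) and 1.39 ± 0.187 (n = 9) on ChP. CA1 PNs were the population with the least clear separation. On ChN the lowest Ts value, 1.24 in mouse 17-153, was just above the highest 2N value, 1.23 in the library of 17-154. On ChP the groups overlapped, since Ts mouse 16-272 had 0.993 and 2N mouse 14-125 had 1.02. The CA1 PN libraries of 17-154, 17-21, 16-357, 15-336 and 16-272 were also left out together, a choice made after seeing the data. The log2 difference in the ratio was then 0.70 on ChN and 0.63 on ChP, against 0.60 and 0.61 with all libraries.

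By mouse, 2N mouse 15-336 had the lowest ratio of its group in all 3 populations, with 0.778 (CA1 PNs), 0.684 (CA3 PNs) and 0.637 (DGCs). Ts mouse 15-140 had the highest of its group in CA1 PNs (1.63) and DGCs (1.57) but the second lowest in CA3 PNs (1.29). In that CA3 PN library the mean log2 CPM of dentate markers was 4.58, the highest of its group, against a group median of 2.04. Mouse 17-154, whose CA1 PN library stood at 1.23, had 0.902 in CA3 PNs and 0.933 in DGCs, both within the 2N range. The order of mice was thus not the same in each population. The ratio is given without a test, since the genes in it were chosen with results of these data known.

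**Figure D3:**
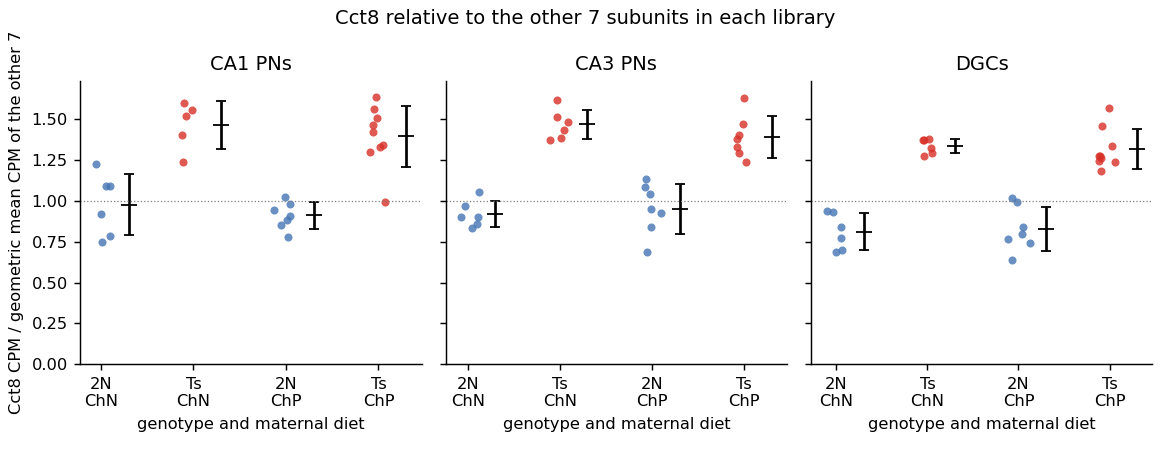
Cct8 CPM divided by the geometric mean CPM of the other 7 subunits in every library (linear axis from 0), by population, genotype and maternal diet, with bars for group mean and SD and a dotted line at 1. Ts libraries (red) lie above 2N libraries (blue) except in CA1 PNs of ChP mice, where 1 Ts library at 0.993 falls among the 2N points.

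Levels between subunits were compared per length, in the deposited TPM, a read share corrected for transcript length. In 2N mice Tcp1 had the highest median TPM and Cct5 the second highest in all 6 groups of population and diet, while Cct3 was lowest or second lowest. In 2N CA3 PNs of ChN mice, for instance, Tcp1 had 168 ± 60.9 TPM (SD, n = 6) and Cct3 had 54.4 ± 21.3. Cct8 ranked between the fourth and the sixth in 2N groups and between the second and the fourth in Ts groups. Neighbors in these orders overlapped in every group, so a single step in rank is within the spread between mice.

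In Ts CA3 PNs of ChN mice Cct8 reached 157 ± 34.6 TPM (n = 6) against 91.0 ± 36.0 in 2N. As a share of the summed TPM of the 8 subunits, Cct8 made up 11.1% and 10.98% in 2N CA1 PNs (ChN and ChP), 11.5% and 11.3% in CA3 PNs and 9.74% and 9.83% in DGCs. In Ts mice the mean shares were 15.8% and 15.5%, 17.2% and 16.3%, and 13.9% and 13.7%, all above the 2N means. By this measure the genotypes were free of overlap in CA3 PNs and DGCs of ChN mice and overlapped in the other 4 comparisons.

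**Figure D4:**
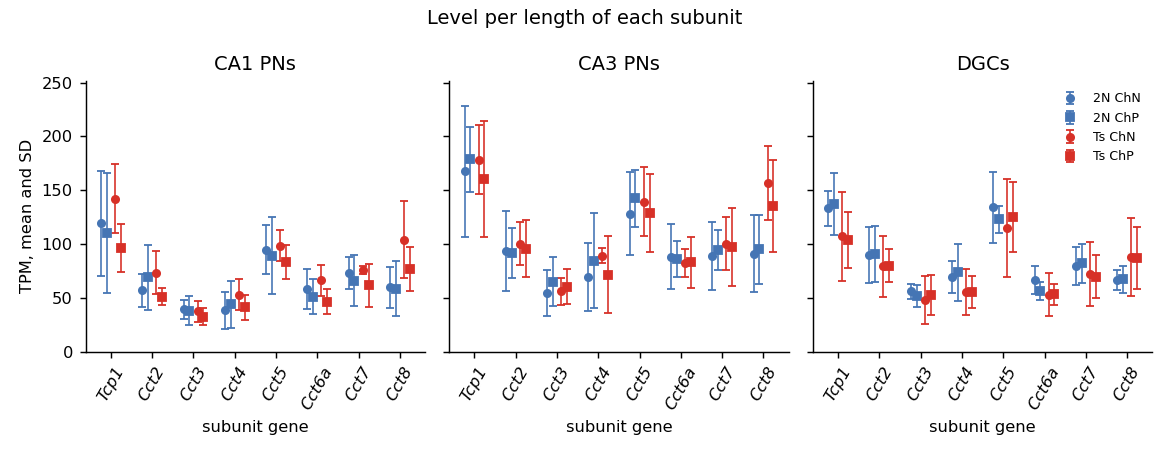
TPM (mean and SD, linear axis from 0) of each CCT subunit by neuron population, genotype and maternal diet. Tcp1 and Cct5 lead in 2N groups (blue), Cct3 is among the lowest, and Cct8 stands higher in Ts (red) than in 2N groups, with wide SDs throughout.

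Ranked over the 12 groups of population, genotype and diet, the median Cct8 CPM was highest in Ts CA3 PNs on ChN (197) and ChP (176), followed by Ts CA1 PNs (162 and 157). The 2N DGCs were lowest (86.2 and 85.7). Ts DGCs (135 and 134) stood near 2N CA3 PNs (125 and 134). Each group overlapped its neighbors in this order. These CPM are TMM-scaled, and differences between populations moved with the scaling, as given for the 2N mice next.

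In comparisons between populations of 2N mice, a subunit was called at an adjusted p under 0.05. Between CA3 PNs and DGCs on ChN, 5 of 8 subunits were higher in CA3 PNs, where 43.7% of all genes tested differed in either direction. They were Cct6a (LFC 0.60, adjusted p = 6.83e-05), Cct8 (0.53, adjusted p = 7.69e-04), Cct7 (0.53, adjusted p = 1.07e-04), Tcp1 (0.37, adjusted p = 0.00664) and Cct2 (0.30, adjusted p = 0.0164). On ChP, 4 of 8 were higher in CA3 PNs, namely Cct6a (0.55), Cct8 (0.51), Tcp1 (0.45) and Cct7 (0.33), against 40.4% of all genes. With so many genes different between these populations, such calls are not particular to CCT. The shares take either direction, and the share of genes higher in CA3 PNs alone is not given here.

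These differences depended on the scaling between libraries. With library totals in place of TMM, the median LFC of all genes between CA3 PNs and DGCs moved by -0.20 on ChN and -0.22 on ChP, 3 and 1 subunits were called, and the LFCs of Cct3 and Cct4 on ChN and of Cct2, Cct4 and Cct5 on ChP, none of them called, fell below 0. Cct6a was called under both scalings on both diets, at 0.41 and 0.33 with library totals. Its 2N CA3 PN libraries ran from 151 to 183 CPM on ChN and its 2N DGC libraries from 95.5 to 122, with no overlap. Cct8 with library totals had 0.33 (adjusted p = 0.0254) on ChN and 0.29 (adjusted p = 0.0628) on ChP.

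Between CA1 PNs and CA3 PNs, Cct2 (LFC -0.35, adjusted p = 0.0123) and Cct4 (-0.37, adjusted p = 0.0481) were lower in CA1 PNs on ChN, and Cct6a (-0.37), Cct5 (-0.31) and Tcp1 (-0.30) on ChP, where 23.3% and 22.9% of all genes differed. With the mouse as a replicate block, since the 3 populations were cut from the same animals, 1 subunit was called on ChN, and the adjusted p of Cct4 was 0.0587. It was 0.0615 without the CA1 PN library of 17-21 and 0.128 without that of 17-154, and with library totals 1 and 0 subunits were called on the 2 diets.

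Between CA1 PNs and DGCs on ChN, Cct8 (LFC 0.37, adjusted p = 0.0253) and Cct7 (0.32, adjusted p = 0.0229) were higher in CA1 PNs, with 34.3% of all genes different, and with library totals 0 subunits were called. Without the CA1 PN library of 17-154, whose other Mmu16 genes stood at the Ts level, Cct8 had 0.31 (adjusted p = 0.0768), and Cct7 kept its call at 0.34. On ChP 0 subunits were called by edgeR, DESeq2 or limma and 0 had an unadjusted p under 0.05, while 31.8% of all genes were called, and with library totals there was 1 subunit.

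**Figure D5:**
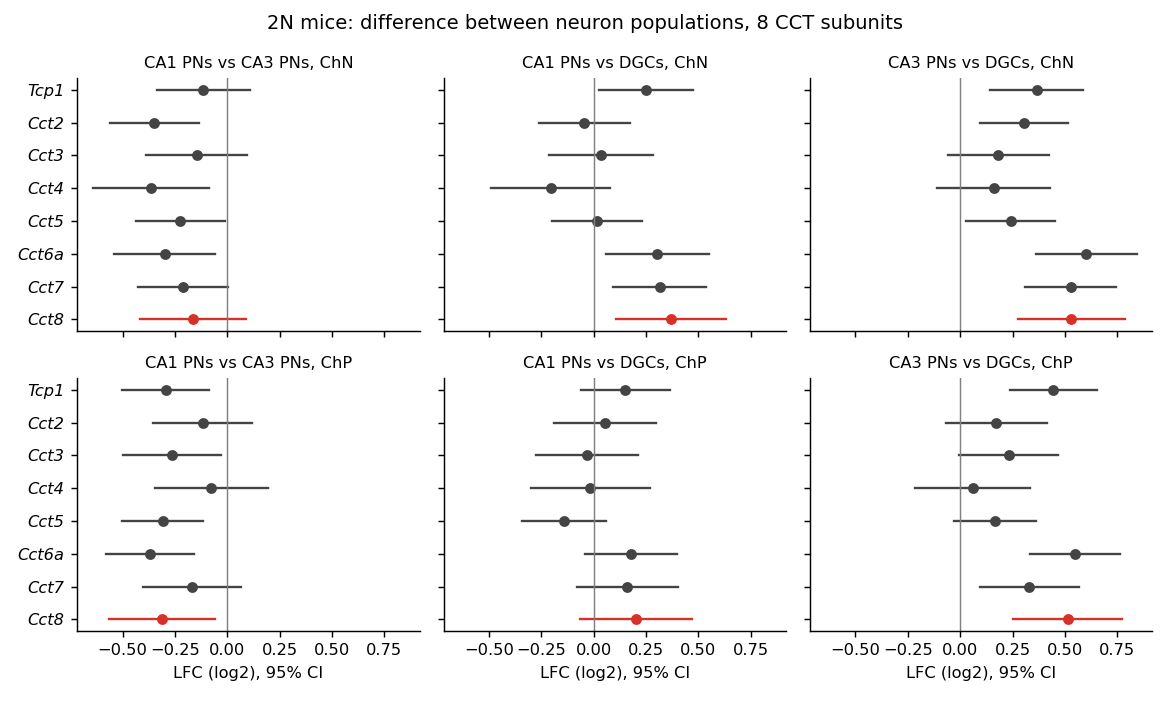
LFC between neuron populations in 2N mice for each CCT subunit under TMM scaling, with points as estimates, bars as 95% confidence intervals, columns as pairs of populations and rows as maternal diets. In the CA3 PN against DGC panels all 8 estimates lie above 0, which with library totals holds for 6 subunits on ChN and 5 on ChP, with Cct6a highest on both diets and Cct8 (red) next to it on ChP.

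Whether the genotype difference in Cct8 itself varied between populations was tested with an interaction term. The difference in LFC was -0.08 (95% interval -0.39 to 0.23) between CA1 PNs and CA3 PNs, -0.14 (-0.45 to 0.18) between CA1 PNs and DGCs and -0.06 (-0.36 to 0.24) between CA3 PNs and DGCs on ChN. On ChP the same differences were 0.10 (-0.19 to 0.39), -0.01 (-0.31 to 0.28) and -0.11 (-0.41 to 0.18). None had an unadjusted p under 0.05, nor did those of the other subunits, in contrasts where 4.22%, 5.51% and 5.18% of all genes did on ChN and 4.27%, 4.95% and 4.42% on ChP. The 3 populations were cut from the same mice. With the mouse as a replicate block, Cct2 passed that threshold on ChP for CA1 PNs against CA3 PNs (difference in LFC -0.30, adjusted p = 1), and likewise with library totals (-0.30). On ChN Cct3 passed between them (-0.35, adjusted p = 0.981) with library 15-145 under its own label.

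Maternal diet left no subunit past an unadjusted p under 0.05 in either genotype of any population or in the interaction of genotype and diet, 9 contrasts in all by edgeR. In CA3 PNs this did not hold for Tcp1 under other settings, where its estimates by edgeR were -0.14 between diets in Ts and -0.20 in the interaction. Of 7 other settings, 5 gave Tcp1 an unadjusted p under 0.05 in Ts (DESeq2, limma, library totals, filterByExpr and library 15-145 under its own label) and 5 in the interaction (with limma replaced by that library left out). With 1 library left out it passed in Ts without 17-192 or 14-90 and in the interaction without 15-145, 15-336 or 14-90. In the interaction in CA1 PNs, Cct5 passed without 15-147 (0.32) or 15-336 (0.31). Of all genes, 3.27%, 4.90% and 5.82% had an unadjusted p under 0.05 between diets in 2N CA1 PNs, CA3 PNs and DGCs, 3.05%, 4.19% and 3.81% in Ts, and 3.22%, 4.87% and 3.97% in the interaction. In 2N mice the LFC of Cct8 on ChP against ChN was -0.12 in CA1 PNs (95% interval -0.36 to 0.12), 0.01 in CA3 PNs (-0.18 to 0.20) and 0.04 in DGCs (-0.18 to 0.25). In Ts mice it was -0.07 (-0.30 to 0.16), -0.10 (-0.28 to 0.09) and -0.01 (-0.19 to 0.18). The genotype by diet term for Cct8 was 0.05 (95% interval -0.28 to 0.39) in CA1 PNs, -0.11 (-0.37 to 0.15) in CA3 PNs and -0.04 (-0.32 to 0.24) in DGCs. Over all 8 subunits the LFCs between diets ran from -0.18 (Cct4 in 2N CA3 PNs) to 0.17 (Cct2 in 2N CA1 PNs). The labels do not say whether the libraries of the 2 diets were prepared together, so diet and any batch cannot be told apart.

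The 3 tested genes next to Cct8 on each side, all listed as triplicated, gave a local reference. Ltn1, a ubiquitin ligase that acts on stalled ribosomes, rose in all 6 comparisons, with LFCs of 0.57, 0.49 and 0.57 in CA1 PNs, CA3 PNs and DGCs on ChN and 0.45, 0.58 and 0.50 on ChP. Usp16, a histone H2A deubiquitinase whose 3′ end overlaps that of Cct8 on the opposite strand, rose in all 6 as well, with 0.52, 0.42 and 0.32 on ChN and 0.68, 0.70 and 0.72 on ChP. Rwdd2b rose in 4 comparisons, Tiam1, an activator of the GTPase Rac, in 4, the transcription factor gene Bach1 in 2 and the kainate receptor gene Grik1 in 1. By its LFC Cct8 lay close to Ltn1 in CA1 PNs and above both Ltn1 and Usp16 in CA3 PNs and DGCs on ChN. On ChP it lay below Usp16 in all 3 populations, above Ltn1 in CA1 PNs and DGCs and below it in CA3 PNs. These differences were not tested.

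After centering each gene within population and diet, the genes whose log2 CPM was most like that of Cct8 over 81 libraries, out of 11495 genes, were Son (Pearson r = 0.869), Ttc3 (0.861), Synj1 (0.850), Ltn1 (0.845) and Dyrk1a (0.816). All 5 are listed triplicated Mmu16 genes, and the libraries share genotype, mouse and depth. The centering kept the genotype difference, which enters every correlation given here, and its part was not tested. Among the genes most like the mean of the other 7 subunits were Ndufa10 (0.582), Hint1 (0.533), Abcf2 (0.526) and Ndufb3 (0.525). The correlation between Cct8 and the mean of its 7 partners was 0.128 on the same libraries.

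Genes that work with CCT were read in the same comparisons, with the DEG threshold of an unadjusted p under 0.05. Of the 6 prefoldin genes, all tested, Pfdn2 fell in CA1 PNs (LFC -0.53, adjusted p = 1) and Pfdn6 in CA3 PNs (-0.50, adjusted p = 0.353), both on ChN, and none rose or fell in the other 4 comparisons. The median LFC of prefoldin was -0.25 in CA1 PNs and -0.20 in CA3 PNs on ChN, against -0.01 and 0.00 over all genes, and 0.05, 0.04, -0.04 and 0.06 in DGCs on ChN and in CA1 PNs, CA3 PNs and DGCs on ChP. Of 5 CCT cofactors 4 were tested, and Pdcl, a phosducin-like partner in folding G protein beta subunits, fell in CA1 PNs on ChN (-0.48, adjusted p = 1). Of 5 genes for CCT-like proteins 3 were tested, and Mkks, part of a complex that works with CCT in assembling the BBSome, rose in DGCs on ChN (0.70, adjusted p = 0.240).

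Of 15 tubulin and actin genes, whose proteins CCT folds, 13 or 14 were tested. Tuba8, an alpha tubulin, rose in CA3 PNs on ChN (LFC 1.11, adjusted p = 0.00992) and in DGCs on ChP (1.31, adjusted p = 0.523). Tubb2b rose in CA3 PNs on ChN (0.36, adjusted p = 0.443), and Actg1, a cytoplasmic actin, fell in DGCs on ChP (-0.26, adjusted p = 0.294). The median of the list was 0.02 in CA3 PNs on ChN, where Tuba8 and Tubb2b rose. It was 0.04 in DGCs on ChP, where Tuba8 rose. Of 4 tested G protein beta genes Gnb4 rose in CA3 PNs on ChN (1.21, adjusted p = 0.479). Of all genes, 9.20% passed the threshold in CA3 PNs on ChN and 7.60% in DGCs on ChP, in either direction.

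Among the 6 tubulin folding cofactors, Tbca, which holds beta tubulin after its release from CCT, fell in CA1 PNs on ChN (LFC -0.70) and rose there on ChP (0.68), with an adjusted p of 1 for each. The direction of Tbca was opposite on the 2 diets. Of 14 cytosolic heat shock protein genes, 4 of 13 tested rose in DGCs on ChN, among them Hsph1 (0.20, adjusted p = 0.386), Dnajb1 (0.61, adjusted p = 0.324) and Hspa1a (1.18, adjusted p = 0.470), while Hspa1b rose in CA1 PNs (0.88, adjusted p = 1) and DGCs (1.17, adjusted p = 0.472) on ChP. Of all genes tested, 4.55% rose in DGCs on ChN, 2.14% in CA1 PNs on ChP and 3.95% in DGCs on ChP. Of the mitochondrial chaperonin genes, Hspd1 rose in CA1 PNs on ChP (0.28, adjusted p = 1). The share of all genes with an unadjusted p under 0.05 in these comparisons, 3.60% to 9.20%, is the background for each count, and no heat shock gene had an adjusted p under 0.05.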

How the data were processed

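Expected counts and TPM per gene came from tables the authors deposited for each library and population. The authors trimmed reads with Trimmomatic 0.39 and checked them with FastQC 0.11.9 and Picard 2.26.2. They aligned them to GRCm39 with STAR and counted genes with RSEM, so expected counts, not whole in 0.784% of values, were rounded here. The deposited TPM of the authors were divided by each library's effective gene lengths, which varied. The depth of the libraries is given with the results and limits precision, and 0 columns were left unused. The counting tool's strand setting is not given in the sources used here.

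Genes above 0.1 CPM in 10 or more of a fit's libraries were tested with the quasi-likelihood test of edgeR 4.0.16 in R 4.3.3, TMM scaling, two-sided, with Benjamini-Hochberg adjustment over all genes tested. Genotype was compared within each population and diet, diet and its interaction with genotype within each population, and populations in 2N mice within each diet. The covariates of the authors' own model (RNA concentration, read percentages) were not used here. Log2 CPM had a prior count of 2. The edgeR fit was tested on simulated counts for the genotype comparisons in CA1 PNs and CA3 PNs on ChN. Motifs were searched in RefSeq promoters located in GRCm39.

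Library genotype came from the labels, except the CA3 PN library of mouse 15-145, which was grouped with the 2N label of that mouse's other libraries. The mouse pairs libraries across populations because they are from the same animal. Deviations of libraries of 1 mouse from their group means had correlations of -0.00769 to 0.15 over 78 pairs (median 0.0707). No 2 libraries of a group agreed within sampling noise over 241 pairs, the smallest chi-square per degree of freedom being 1.6. The members and lists were chosen with earlier results of these data known. Genes named beside the subunits were the members of each related list with an unadjusted p under 0.05 (at most 3 per list and comparison), the 3 tested genes on each side of Cct8, and the 5 most alike genes. Alternatives were DESeq2 1.42.0, limma 3.58.1 (voom), library totals, filterByExpr, no filter, 1 surrogate variable from sva 3.50.0, the mouse as block, all 4 groups in 1 fit, other ratios, the 2 treatments of library 15-145, each library left out and, added after seeing the data, CA1 PN libraries left out and a CA2 marker covariate. One gene that the rule for named genes selects is not reported here.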

Additional observations from a re-analysis of the deposited data

Results flagged for a closer look

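Over 108 sets of libraries in which a subunit or the ratio of Cct8 to its partners was screened for a library far from the rest, 1 was singled out. In CA3 PNs of Ts mice on ChN, the library of mouse 17-153 had 90.2 CPM of Cct4, while the next highest of the 6 libraries had 76.1, a gap of 0.730 of the whole range. Chance alone singles out about 1 in 20 groups (5%) by this measure, so 1 of 108 is no more than it gives. Between populations or diets, 0 of 72 tests of the difference in a subunit's genotype LFC had an unadjusted p under 0.05 by edgeR.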

How the results depend on the processing

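Cct8 was higher in Ts with an unadjusted p under 0.05 under all 49 other settings and with each of 81 libraries left out in turn, over the 6 genotype comparisons. The LFC ran from 0.45 in CA3 PNs on ChP to 0.74 in DGCs on ChN by setting. The adjusted p in CA1 PNs on ChN lay between 0.0137, without the libraries of 17-154, 17-21 and 16-357, and 1. The fit at the low end was chosen after seeing the data. The log2 difference in the ratio to the partners kept its direction in all 23 other settings and with each of 81 libraries left out.

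Small diet and interaction estimates for Cct8, none past the threshold, changed sign. The genotype by diet term in CA1 PNs was -0.0155 with library totals. The diet LFC in Ts DGCs was 0.0114 with DESeq2, 0.0198 with library totals and 0.0109 with filterByExpr. The difference in LFC between CA1 PNs and CA3 PNs on ChN was 0.01 with library 15-145 under its own label. With 1 library left out, the LFC ranged from -0.0302 to 0.0904 for diet in 2N CA3 PNs, from -0.0326 to 0.0950 for diet in 2N DGCs and from -0.0429 to 0.0361 for diet in Ts DGCs. The genotype by diet term ranged from -0.0031 to 0.14 in CA1 PNs and from -0.0925 to 0.0402 in DGCs, and the difference between CA1 PNs and CA3 PNs on ChN from -0.0517 to 0.0023.

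The subunits called between 2N populations moved most with scaling. With library totals the counts were 1 (from 2), 0 (from 2) and 3 (from 5) on ChN for CA1 PNs against CA3 PNs, CA1 PNs against DGCs and CA3 PNs against DGCs, and 0 (from 3), 1 (from 0) and 1 (from 4) on ChP. CA1 PNs against CA3 PNs on ChN also gave 1 with DESeq2, with no filter and with the mouse as replicate block, and between 1 and 2 without 1 CA1 PN library, 1 without that of 17-154. CA1 PNs against DGCs on ChN gave 1 with no filter. The replicate block changed no other of these counts by over 1.5 times, giving 2 and 5 on ChN and 4, 0 and 4 on ChP. Why these calls changed was not tested. The 95% intervals of the partners' LFCs between genotypes reached from -0.55 to 0.52, so small shifts in them were not detectable at this depth and number of mice.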
